A study of Rattus norvegicus with 3 samples.

Results

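The sodium-potassium ATPase is the membrane pump that exports sodium and imports potassium at the cost of ATP. Its transcripts were examined through 7 genes of the 30957 listed: 1 catalytic alpha gene (Atp1a4), 3 beta genes (Atp1b1, Atp1b2 and Atp1b3) and 3 FXYD genes (Fxyd1, Fxyd6 and Fxyd7). They were chosen by exact gene symbol, and each of the 7 had 1 row in every library.

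RNA was sequenced from motor cortex of 3 male Sprague-Dawley rats, labelled 12, 24-4 and 33, with 1 library each. All had undergone cerebral ischemia and reperfusion, a block and return of brain blood flow, followed by electroacupuncture at the GB20 (Fengchi) point, and all carry a time of 8 weeks, whose starting point the labels leave unstated. The rats form 1 group. Animals without ischemia or without electroacupuncture were not analysed here, so the values describe levels and differences between treated rats, not an effect of either procedure.

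The alpha subunit hydrolyses ATP and carries the ions, the beta subunit is needed for the alpha subunit to fold and reach the membrane, and small single-pass FXYD proteins bind the complex and tune its affinity for ions. In brain, beta1 is abundant in neurons, beta2, first described as an adhesion molecule on glia, is abundant in astrocytes, and beta3 is found in many tissues. The pump restores the ion gradients that neuronal firing runs down, and it stops when ischemia removes ATP.

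Levels are given as FPKM, the number of fragments assigned to a gene divided by its length in kilobases and by the library's fragments in units of 1000000. Because FPKM is scaled by length, levels of different genes are set beside one another here. How counts were normalized and shared fragments assigned is not given in the sources used here, so ratios between genes are approximate. Library depth, estimated from loci of at most 400 bp, was 12960000 to 17180000 fragments, and the FPKM sums were 464587 to 489810. The mitochondrial genome took 14.4% to 26.6% of FPKM. Markers of cortical neurons were present, with 6 of 6 glutamatergic and 6 of 6 GABAergic genes above a mean FPKM of 1. The rats differed in other tissue components: the summed FPKM of 6 choroid plexus markers was 3324 in rat 12, 129 in rat 24-4 and 13115 in rat 33.

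Promoter sequences are shown for the 3 members with an available sequence and a mean FPKM above 1 whose highest value was in rat 33 (Fxyd1, Atp1b2 and Atp1b3). They come from RefSeq on build GRCr8, on the minus strand, written 5′ to 3′ from 250 bases before the transcription start to 50 bases after it. Of the 7 members, 5 matched by symbol, and Atp1b1 and Fxyd7 did not. Capitals mark each match to GGGCGG, the GC box letters, on either strand.
Fxyd1, chr1:95418531-95418830: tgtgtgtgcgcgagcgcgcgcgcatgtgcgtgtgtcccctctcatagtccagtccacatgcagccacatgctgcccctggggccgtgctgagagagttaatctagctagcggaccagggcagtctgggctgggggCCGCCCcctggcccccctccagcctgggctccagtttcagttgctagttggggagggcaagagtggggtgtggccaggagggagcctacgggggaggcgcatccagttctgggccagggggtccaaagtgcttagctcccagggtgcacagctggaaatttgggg
Atp1b2, chr10:54823659-54823958: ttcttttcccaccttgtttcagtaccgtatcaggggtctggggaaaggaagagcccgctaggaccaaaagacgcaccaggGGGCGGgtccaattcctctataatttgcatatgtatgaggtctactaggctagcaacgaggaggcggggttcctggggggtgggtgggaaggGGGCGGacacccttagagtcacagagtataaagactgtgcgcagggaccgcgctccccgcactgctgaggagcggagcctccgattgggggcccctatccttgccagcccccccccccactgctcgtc
Atp1b3, chr8:105821102-105821401: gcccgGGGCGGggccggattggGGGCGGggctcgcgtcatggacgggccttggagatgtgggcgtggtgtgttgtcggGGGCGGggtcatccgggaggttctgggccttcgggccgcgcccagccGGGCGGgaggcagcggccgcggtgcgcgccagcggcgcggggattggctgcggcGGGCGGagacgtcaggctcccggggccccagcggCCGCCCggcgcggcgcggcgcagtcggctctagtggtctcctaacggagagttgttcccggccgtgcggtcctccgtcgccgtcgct

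The window of Atp1b3 stood out by its base composition, with 77.7% G and C, more than in 98.2% of the 33469 promoter windows of the same length, against 65.3% for Fxyd1 and 60.3% for Atp1b2. GGGCGG occurred 6 times in Atp1b3, 2 times in Atp1b2 and 1 time in Fxyd1, and at least 1 match was present in 33.1% of all windows. The windows of Atp1a4 and Fxyd6, which are not shown, held no GGGCGG match. TATAAA occurred 1 time in Atp1b2 and not in the windows of Atp1b3 or Fxyd1, against 14.2% of all windows. CCAAT, on either strand like the other motifs, occurred 2 times in Atp1b2, 2 times in Atp1b3 and not in the Fxyd1 window, against 37.5% of all windows. The 3 motifs shared no bases in these windows. A match describes letters and was not tested for binding.

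The alpha member Atp1a4, which encodes the isoform of sperm flagella, was listed at a low level in every rat. Its FPKM was 0.642 in rat 12, 0.656 in rat 24-4 and 0.869 in rat 33 (0.722 ± 0.127, SD, n = 3 rats, as below). At the estimated depth this is 9.80, 11.3 and 11.3 fragments per kilobase. Taken as counts on 1 kilobase, their exact Poisson interval at 95% ran from 4.66 to 18.1 in rat 12. It ran from 5.68 to 20.02 in each of the others. These bounds cover counting error only. The length of the transcript was not used, so its full fragment count and the error of that count are not given. All 3 values lay above the FPKM of 3 fragments on 1 kilobase, 0.175 to 0.231. The sperm genes Prm1, Tnp1 and Akap4 were listed at 0 in all 3 rats. How fragments that match more than 1 related gene were assigned is not given in the sources used here, which leaves so low a value uncertain. Atp1a4 did not reach the mean FPKM of 1 required for testing. Its locus (chromosome 13, 90605794 to 90641772, minus strand, Rnor_6.0) overlaps no other listed row.

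**Figure D1:**
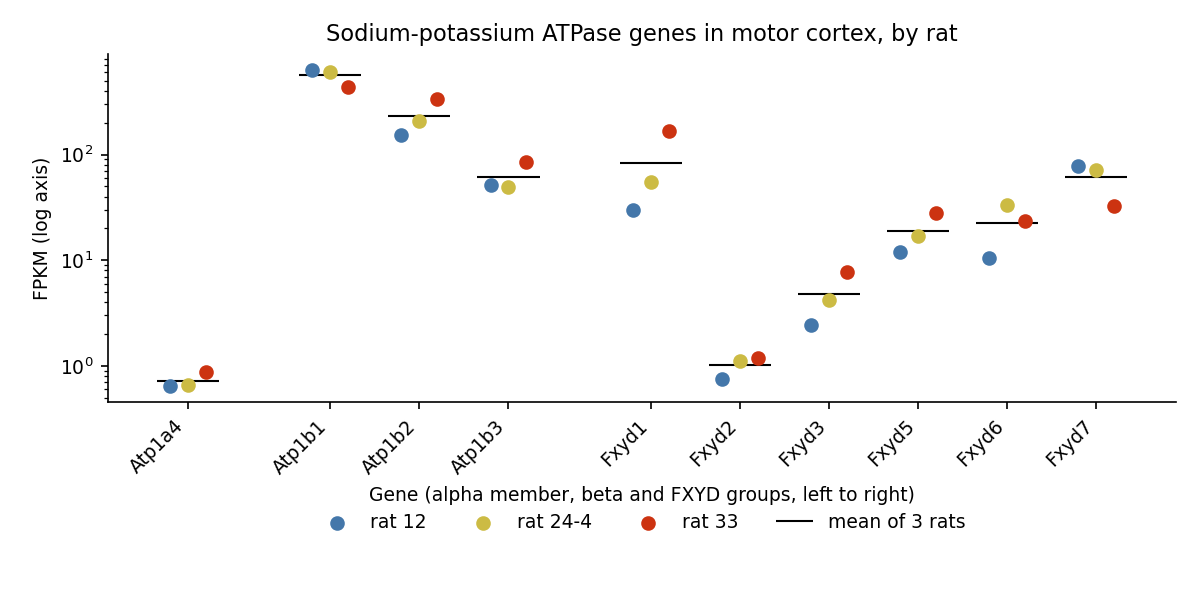
FPKM (log axis) of the members and of Fxyd2, Fxyd3 and Fxyd5 in each of the 3 rats (coloured points), with the mean as a line. Atp1a4 lies below 1 FPKM in every rat, Atp1b1 lies highest at 441 to 635, and Fxyd1 spreads from 29.9 to 166.

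Of the beta genes, Atp1b1, which encodes the beta1 subunit, was the most abundant in each rat. It had 635 in rat 12, 611 in rat 24-4 and 441 in rat 33 (562 ± 106), and it ranked 59 by mean among all listed genes. Rats 12 and 24-4 were close together and rat 33 was lower. With the mitochondrial genome left out, Atp1b1 had 865, 714 and 557 in rats 12, 24-4 and 33. The closeness of rats 12 and 24-4 thus depends on the scaling, while rat 33 stayed lowest. The Atp1b1 locus (chromosome 13, 82737159 to 82758004, minus strand, Rnor_6.0) overlaps by 185 bp with Nme7 on the plus strand, which had 10.2, 10.8 and 11.5. Whether counting used the strand is not given in the sources used here, so reads in the shared stretch cannot be told apart.

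Atp1b2, which encodes the glial adhesion molecule and beta2 subunit, ran the other way. It had 155, 206 and 334 in rats 12, 24-4 and 33 (232 ± 92.4), lowest in rat 12 and highest in rat 33. Atp1b3, which encodes the beta3 subunit, had 51.04, 49.2 and 85.9 in the same order (62.1 ± 20.7), with rats 12 and 24-4 alike and rat 33 above both. With the mitochondrial genome left out, Atp1b3 had 69.5, 57.5 and 109, so rats 12 and 24-4 were less alike. Atp1b2 (chromosome 10, 56205625 to 56211891) and Atp1b3 (chromosome 8, 104190032 to 104221342) lie on the minus strand of Rnor_6.0, and no other listed row overlaps either. Atp1b4, a muscle relative that is not a pump subunit in placental mammals, was listed at 0 in all 3 rats.

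The 3 beta genes kept one order in every rat, but the distances between them differed. Atp1b1 was 4.11, 2.96 and 1.32 times Atp1b2 in rats 12, 24-4 and 33. On the log2(FPKM + 1) scale the difference was 1.33 ± 0.84, positive in 3 of 3 rats. Atp1b1 exceeded Atp1b3 by 3.19 ± 0.73 and Atp1b2 exceeded Atp1b3 by 1.86 ± 0.25, each in 3 of 3 rats. A two-sided exact sign-flip permutation test gave p = 0.25 for each, the smallest value that 3 rats allow, and 0.292 after Benjamini-Hochberg adjustment over 14 fixed pairs, of which 10 are reported, so the design cannot pass 0.05.

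Summed over beta genes, FPKM differed little between rats while the composition differed more. The sum was 841 in rat 12, 867 in rat 24-4 and 861 in rat 33, a coefficient of variation of 1.59%. It was 3.77% after rescaling the libraries to equal median ratios and 6.18% with the mitochondrial genome left out, so the closeness of the sums depends on the scaling. The share of Atp1b1 in the sum, which no scaling changes, was 75.5%, 70.5% and 51.2% in rats 12, 24-4 and 33, and that of Atp1b2 was 18.4%, 23.8% and 38.8%. Atp1b3 held 6.07%, 5.68% and 9.98%. These sums and shares were chosen after the values were seen.

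**Figure D2:**
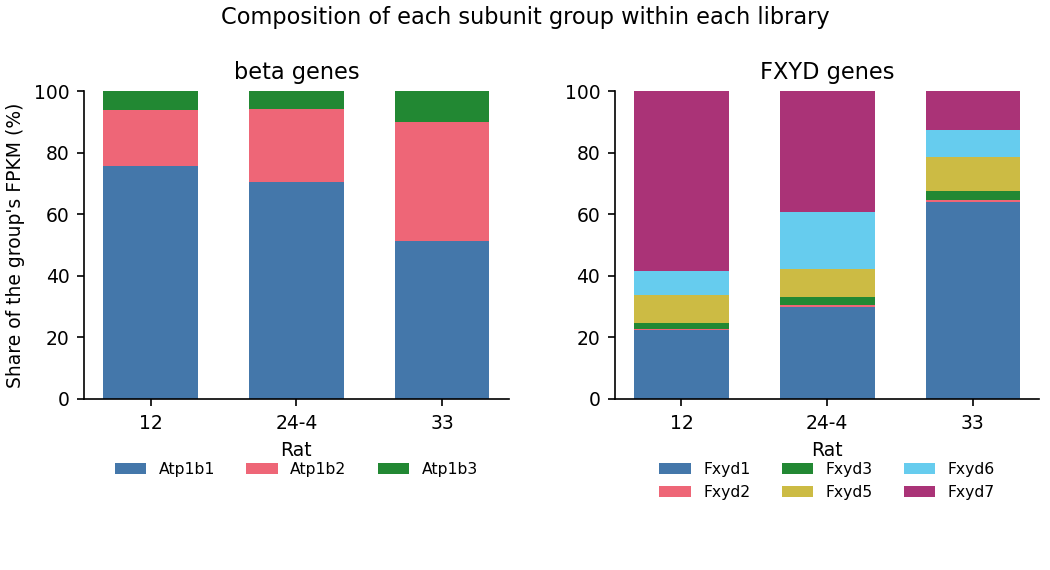
Share of summed FPKM (percent, vertical axis) held by each gene of the beta and FXYD groups in rats 12, 24-4 and 33 (bars, each adding to 100%). Atp1b1 takes 75.5%, 70.5% and 51.2% of the beta bar, and Fxyd7 takes 58.5%, 39.4% and 12.5% of the FXYD bar while Fxyd1 takes 22.3%, 30.05% and 64.1%.

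The FXYD members showed the widest spread. Fxyd1 encodes phospholemman, a kinase substrate that restrains the pump until it is phosphorylated. It had 29.9 in rat 12, 54.6 in rat 24-4 and 166 in rat 33 (83.5 ± 72.5), a 5.55-fold span. Its highest value lay far from the other two, and its mean without rat 33 was 42.3. The range of 2.43 on the log2(FPKM + 1) scale was larger than in 99.0% of tested genes.

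Fxyd7 encodes a brain FXYD protein found mainly in neurons. It had 78.4, 71.5 and 32.5 in rats 12, 24-4 and 33 (60.8 ± 24.8), with rat 33 lowest. Fxyd6 encodes phosphohippolin, described in brain and inner ear. It had 10.6, 33.3 and 23.3 (22.4 ± 11.4), with rat 12 lowest and rat 24-4 highest, an order that no other member had.

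Which FXYD gene was most abundant differed between rats. Fxyd7 led in rats 12 and 24-4 and Fxyd1 in rat 33, so that Fxyd1 minus Fxyd7 was -1.36, -0.38 and 2.32 on the log2(FPKM + 1) scale, with a mean of 0.19 ± 1.91 (exact sign-flip p = 1, adjusted 1). Without rat 33 this mean was -0.87. Fxyd6 was below Fxyd7 in 3 of 3 rats, with a difference of -1.44 ± 1.199, and below Fxyd1 in 3 of 3, with -1.63 ± 1.06 (exact sign-flip p = 0.25 and adjusted p = 0.292 for both). The first was -0.77 without rat 12, and the second -1.06 without rat 33.

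The other FXYD genes were lower. Fxyd5, which encodes dysadherin, had 12.0, 16.9 and 28.3 in rats 12, 24-4 and 33, Fxyd3 had 2.45, 4.23 and 7.82, and Fxyd2, the gamma subunit of kidney, had 0.757, 1.12 and 1.19. All of these were highest in rat 33. Fxyd4 was listed at 0 in all 3 rats. The FXYD sum was 134, 182 and 259 in the same order, lowest in rat 12 and highest in rat 33.

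Fxyd5, Fxyd7, Fxyd1 and Fxyd3 lie in that order on the minus strand of chromosome 1 (Rnor_6.0, 89464860 to 89509343). Fxyd7 (89474601 to 89483988) and Fxyd1 (89484199 to 89488223) are 210 bp apart. Of these neighbours, Fxyd5, Fxyd1 and Fxyd3 were highest in rat 33 and lowest in rat 12, and Fxyd7 had the reverse order. Lgi4, on the plus strand between Fxyd1 and Fxyd3, had 20.4, 36.6 and 42.4. It overlaps Fxyd3, so those 2 rows are uncertain without knowledge of the strand. Fxyd6 (chromosome 8, 49676540 to 49703419) has Fxyd2 as its neighbour on the same strand.

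By mean FPKM the 7 members ranked Atp1b1, Atp1b2, Fxyd1, Atp1b3, Fxyd7, Fxyd6 and Atp1a4. Atp1b1 stayed above Atp1b2, Atp1b2 above Fxyd1, Fxyd7 above Fxyd6 and Fxyd6 above Atp1a4 in all 3 rats. Fxyd1 and Atp1b3 changed places, with Fxyd1 lower in rat 12 and higher in rats 24-4 and 33. Atp1b3 and Fxyd7 did too, with Fxyd7 higher in rats 12 and 24-4 and lower in rat 33. The means of these 3 middle genes thus did not differ beyond their spread.

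Across the 2 groups of subunits, the difference between Atp1b1 and Fxyd7 was 3.27 ± 0.40 on the log2(FPKM + 1) scale, with single values of 3.00, 3.08 and 3.72. That between Atp1b2 and Fxyd7 was 1.94 ± 1.23, with 0.97, 1.52 and 3.32. Atp1b1 and Fxyd7 were both lowest in rat 33, and Atp1b1 was 8.10, 8.55 and 13.6 times Fxyd7 in rats 12, 24-4 and 33. Both pairs were farthest apart in rat 33, and without it the difference between Atp1b2 and Fxyd7 was 1.24. Atp1b2 minus Fxyd1 was 1.74 ± 0.68 and Atp1b1 minus Fxyd6 was 4.71 ± 0.93, all positive in 3 of 3 rats (exact sign-flip p = 0.25 and adjusted p = 0.292 for each of the 4 pairs).

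Whether a member varied between rats more than genes of its level was tested with limma over 13754 genes, those whose FPKM averaged 1 or more. No member passed: 0 of 6 tested members had an adjusted p under 0.05, against 0.102% of all tested genes. At an unadjusted limma p under 0.05 there were 2 of 6, against 5.96% of tested genes. These were Fxyd1 (unadjusted p = 0.00577, limma adjusted p = 0.469) and Fxyd6 (unadjusted p = 0.0340, limma adjusted p = 0.775). Fxyd7, Atp1b2, Atp1b3 and Atp1b1 had limma adjusted p-values of 0.914, 0.993, 0.993 and 0.993. Differences of a few fold between single rats are mostly beyond what this test can call with 3 animals, so a p that misses the threshold does not show that the rats had equal levels.

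**Figure D3:**
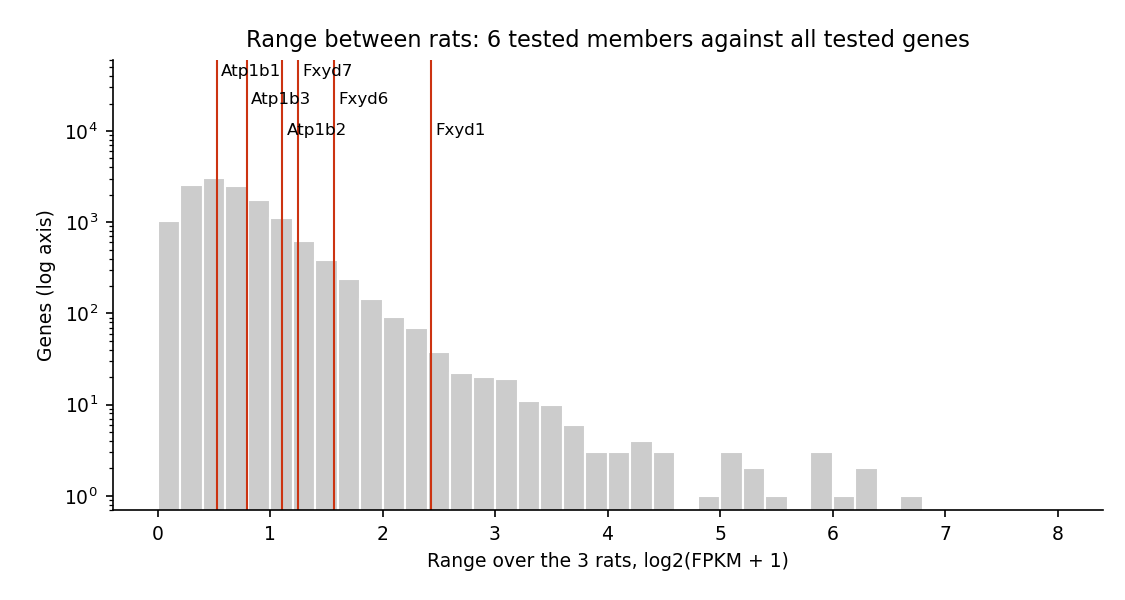
Number of tested genes (log axis) by their range over the 3 rats on the log2(FPKM + 1) scale (grey bars, 13754 genes), with red lines at the 6 tested members. Fxyd1 lies at 2.43, farther right than 99.0% of genes, and Atp1b1 at 0.53, near the bulk of them.

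The median range of the 6 tested members was 1.18 on the log2(FPKM + 1) scale, against 0.61 over all tested genes. The highest value was in rat 33 for Atp1b2, Atp1b3 and Fxyd1, in rat 12 for Atp1b1 and Fxyd7, and in rat 24-4 for Fxyd6. Over all tested genes, 42% were highest in rat 33, 23.8% in rat 12 and 34.2% in rat 24-4. Atp1b2 and Fxyd1 had the order of rats 33, 24-4 and 12, as did 21.3% of tested genes, and Atp1b1 and Fxyd7 had the reverse order, as did 11.2%. The members thus did not share one pattern.

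Marker lists of neurons and glia differed between the rats in the same directions as some members. In bulk tissue, fewer cells of a type and less RNA per cell cannot be told apart. The summed FPKM of 6 glutamatergic markers was 2052, 2152 and 1028 in rats 12, 24-4 and 33, and 5 of the 6 were lowest in rat 33, as were 6 of 6 GABAergic markers (471, 518 and 264) and 5 of 6 pan-neuronal markers (2275, 1377 and 1136). Snap25 weighed most in the pan-neuronal sum, with 1178, 379 and 440, and was lowest in rat 24-4. Of the 6 pan-neuronal markers, 4 were highest in rat 12 and 2 in rat 24-4. Of all 13754 tested genes, 3969 were lowest in rat 33. Atp1b1 and Fxyd7 were lowest in the same rat. None of these neuronal markers was listed at 0, and their part in the values of Atp1b1 and Fxyd7 was not tested.

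For glia, the sum of 7 astrocyte markers was 1251, 2186 and 2949 in rats 12, 24-4 and 33, with 6 of 7 lowest in rat 12 and 4 of 7 highest in rat 33. The sum of 6 oligodendrocyte markers was 5323, 6965 and 12114, with 6 of 6 highest in rat 33, and that of 5 microglial markers was 102, 178 and 307, again with 5 of 5 highest there. Of all 13754 tested genes, 5209 were lowest in rat 12 and 5772 highest in rat 33. Atp1b2 and Fxyd1 had the same order of rats as these marker sums. Within the astrocyte list, Gfap had 271, 937 and 1585, whereas Aldoc had 269, 286 and 232, so its members did not move as one. The part of these cells in the values of Atp1b2 and Fxyd1 was not tested.

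Phospholemman is also known from choroid plexus and vessels. The 6 choroid plexus markers were all highest in rat 33 and all lowest in rat 24-4, and Fxyd1 was highest in rat 33 and lowest in rat 12. Of all 13754 tested genes, 5772 were highest in rat 33, 4710 highest in rat 24-4 and 4576 lowest in rat 24-4. The sum of 4 meningeal and fibroblast markers was 27.3, 27.2 and 91.0, and that of 4 mural markers 98.3, 75.6 and 181, with rat 33 highest in both, as for Fxyd1. The sum of 3 endothelial markers was 48.4, 74.7 and 60.7 in rats 12, 24-4 and 33, highest in rat 24-4. Of these 3, 2 were highest in rat 33 and 1 in rat 24-4. None of these markers was listed at 0, and their part in the Fxyd1 values was not tested.

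**Figure D4:**
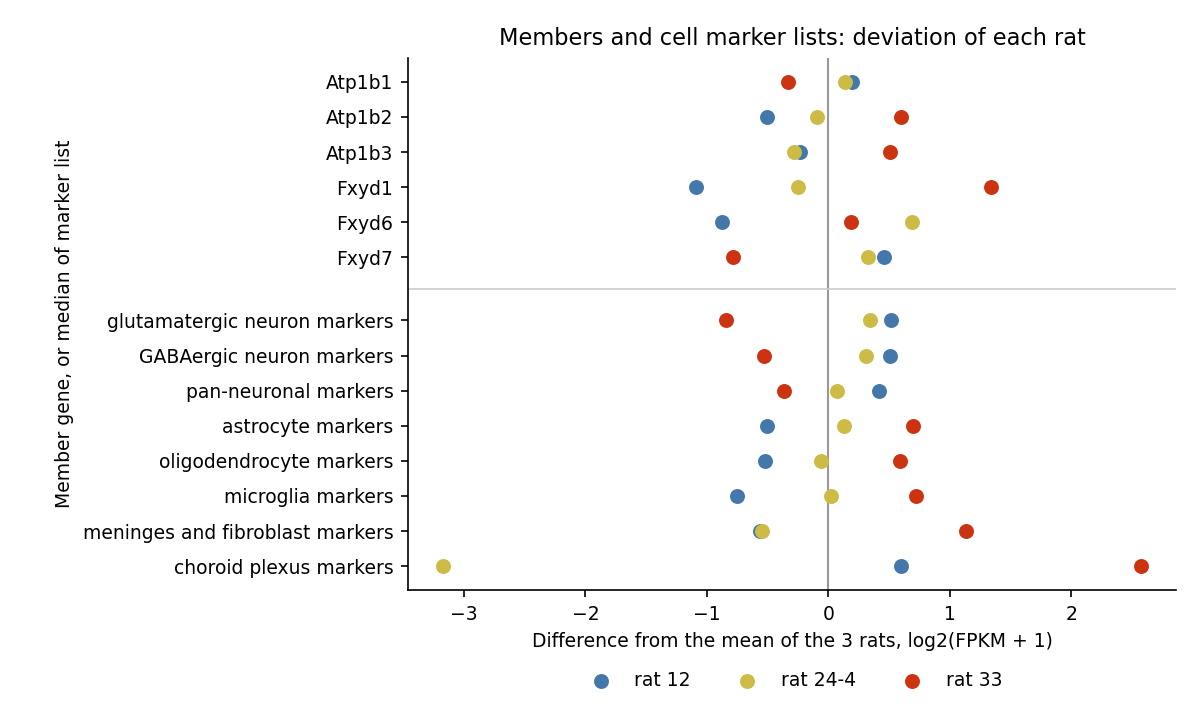
Difference of each rat (coloured points) from the mean of the 3 rats on the log2(FPKM + 1) scale, for the 6 tested members (top) and for the median of 8 marker lists (bottom). Rat 33 lies to the left for Atp1b1, Fxyd7 and the neuronal lists and to the right for Atp1b2, Atp1b3, Fxyd1 and the glial lists.

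Genes whose patterns over the 3 rats were most like a member's were sought among tested genes within 1 log2 unit of its level, by Euclidean distance between deviations from the mean, as a description over 3 samples. For Fxyd1, the tested member with the widest range, they were Lyz2 (32.1, 55.5 and 142 in rats 12, 24-4 and 33), Rnaset2 (15.6, 34.0 and 79.7) and Mt2A (46.5, 114 and 302), at distances of 0.24, 0.27 and 0.31 among 2022 genes. Lyz2 encodes a lysozyme, Rnaset2 a ribonuclease and Mt2A a metallothionein. For Atp1b1 they were Ywhaz (496, 486 and 359), Mdh1 (602, 657 and 446) and Ndrg4 (595, 642 and 417), at distances of 0.04, 0.13 and 0.13 among 129 genes. Ywhaz encodes a 14-3-3 protein and Mdh1 the cytosolic malate dehydrogenase.

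Relatives and partners of the pump gave no call either. Of the 3 tested genes of the other beta and FXYD list, 4 Nkain genes (a family whose products bind the pump), 6 tested calcium pump genes and 12 genes that use or shape the sodium and potassium gradients, 0 passed limma at an adjusted p under 0.05. Unadjusted limma p-values were under 0.05 for 0 of 3, 0 of 4, 1 of 6 and 4 of 12, in that order. The shares over all tested genes were 0.102% at the adjusted threshold and 5.96% at the unadjusted one. The 1 calcium pump gene was Atp2b2, at 114, 56.05 and 28.5 in rats 12, 24-4 and 33, highest in rat 12 like Atp1b1 and Fxyd7. Its adjusted p by limma was 0.674.

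Among users of the gradients, the 4 did not share one direction. The neuronal chloride exporter gene Slc12a5 had 133, 124 and 40.7 in rats 12, 24-4 and 33, and the sodium-calcium exchanger gene Slc8a2 had 59.1, 87.0 and 23.9, both lowest in rat 33. The chloride importer gene Slc12a2 had 32.2, 20.9 and 64.9, and the glial glutamate transporter gene Slc1a3, also one of the astrocyte markers, had 29.7, 30.2 and 111, both highest in rat 33. Their limma adjusted p-values ran from 0.564 to 0.805. The median level of the 12 genes was 5.36 ± 0.18 on the log2(FPKM + 1) scale, against 5.98 ± 0.40 for the 7 members and 3.48 ± 0.07 for all tested genes.

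The potassium channel gene Kcnj10, of astrocytes, had 50.3, 41.0 and 52.9 in rats 12, 24-4 and 33, and the glutamate transporter gene Slc1a2 had 153, 184 and 161. Nkain2 had 21.9, 18.9 and 30.9 and Nkain3 had 0.243, 1.40 and 2.86, both highest in rat 33, whereas Nkain1 had 8.01, 14.7 and 13.1 and Nkain4 had 7.08, 13.4 and 9.26, both highest in rat 24-4. Of the gastric and colonic proton pump genes, Atp4b was listed at 0 in all rats, and Atp12a was near 0, with 0.0708, 0.0378 and 0. Atp4a had 0.206, 0 and 1.505, so it was not near 0 in rat 33.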

How the data were processed

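RNA sequencing of motor cortex from 3 rats was analysed, 1 library each, in 1 group. The authors deposited FPKM values, which a script of theirs derived from normalized fragment counts, per the series' design text. The submitters' processing notes name HISAT2 (version 2.0.4), StringTie (version 1.3.0) and the build Rnor_6.0. How counts were normalized, and whether strand was used, is not given in the sources. FPKM divides by the library total, so abundant transcripts lower all other values.

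Rows were taken by exact gene symbol. The members, lists and tests were chosen with earlier results of these data known, and the sums and shares within subunit groups after seeing their values. Named genes were the members, the fixed partner and marker lists, and the 3 most similar genes for Atp1b1 and for the tested member with the widest range. Of the fixed marker genes, Pecam1, Otx2 and Foxj1 were not used here.

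The scale was log2(FPKM + 1), on which differences of low genes appear too small. Variability was tested over the 13754 genes whose FPKM averaged 1 or more: limma (version 3.58.1, R 4.3.3) fitted an intercept with a trended robust prior, and each residual variance over its prior was compared one-sided with the F distribution (Benjamini-Hochberg over all genes, threshold 0.05). The test was also run on simulated data with 200 seeded genes and variances drawn from the prior fitted to these rats. Such a run cannot show whether that prior suits the data. Depth was estimated from short loci (up to 400 bp) by finding the library size at which low values become whole fragments (tolerance 0.02): 97.6%, 96.6% and 96.9% of values were whole in rats 12, 24-4 and 33. Whether the estimates are raw or normalized sizes is unknown. Pairs were compared by exact sign-flip tests, and some fixed partner genes and their pairs are not reported here. Alternatives were another pseudocount, filter, prior and scaling, and leaving out each rat. Python 3.11.15, numpy 2.4.6, pandas 2.3.3, scipy 1.17.1 and matplotlib 3.10.9 were used. A value of 0, given to 11974 genes in all rats, may reflect a failed estimate.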

Additional observations from a re-analysis of the deposited data

How the results depend on the processing

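The 3 rats limit every statement, and low genes such as Atp1a4 had few fragments per kilobase. Leaving out 1 of 3 rats cannot move a mean by 1 SD, so it is no check of stability, and the Fxyd1 mean went from 83.5 to 42.3 without rat 33. With the mitochondrial genome left out, which shifts every gene by 0.45, 0.22 and 0.34 on the log2 scale in rats 12, 24-4 and 33, the mean of Atp1a4 was 0.913, that of Atp1b1 712 and the beta sum 1082. Scaling a library moves both genes of a pair alike, and a difference of 1 sign in all rats keeps it when a rat is left out, so the signs of 9 of the 10 pairs could hardly change. Fxyd1 minus Fxyd7 ran from -0.87 without rat 33 to 0.97 without rat 12. No member passed the limma test under any of its 9 alternatives, with the lowest adjusted p for Fxyd6 (0.321), and Atp1a4, tested only with the lower filters, did not pass either. Over all genes, 14 were called variable, against 23 with a pseudocount of 0.1 and 0 with the mitochondrial genome left out, a mean FPKM of at least 0.1, no filter (genes listed at 0 in all rats left out) or a prior that is not robust, and between 0 (without rat 24-4) and 104 (without rat 12) with a rat left out. The cause was not tested. No comparison between groups, paired or not, was possible because there is 1 group, and the only pairing was of genes within a rat. The alternatives for sums and shares were added after seeing the data, for the beta sum and the shares of Atp1b1, Fxyd1 and Fxyd7. Without rat 33 the mean share of Fxyd1 went from 38.8% to 26.2%, and without rat 12 that of Fxyd7 from 36.8% to 25.95%.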
